A study of Mus musculus with 4 samples.

Results

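NAT10, the enzyme that writes N4-acetylcytidine on RNA, had 15 peaks on Mtdh in an eCLIP experiment on mouse 32D cells, out of 4172 distinct peaks in the whole list. These 15 are all the entries that the authors assigned to Mtdh (ENSMUSG00000022255), and all lie on the plus strand of chromosome 15 (GRCm39). In eCLIP, proteins are fixed to their RNA by UV light, the protein of interest is pulled down with an antibody, and the RNA that comes with it is sequenced beside an input without pull-down. There were 2 NAT10 immunoprecipitates and 2 inputs, all from wild-type 32D cells, a line from mouse bone marrow that grows on interleukin-3. The cells were kept with 10 ng/mL mouse interleukin-3 and crosslinked at 254 nm, and no library had another genotype or treatment. Separate cultures for the replicates are not named in the labels. The deposited list joins all libraries, so each peak has 1 fold and 1 p with no spread between replicates, and Mtdh is described below without a test. The list itself was selected on these values, with no log2 fold under 3.00 and no -log10 p under 3.07.

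Mtdh encodes metadherin, also known as LYRIC, a membrane-associated protein with a single transmembrane segment that is found at the endoplasmic reticulum and in the nucleus. It has no known enzyme activity and works through partners. The best studied is the nuclease SND1, a part of the RNA-induced silencing complex, and metadherin also binds the NF-kB subunit p65 and has itself been described as an RNA-binding protein. It is known as a driver of tumour growth and metastasis. NAT10 acetylates cytidines in rRNA, tRNA and mRNA, and acetylation of mRNA has been linked to its stability and translation. The series set out to locate direct contacts of NAT10 on mRNA, with haematopoietic stem cells as the setting.

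The signal on Mtdh was concentrated in 1 short stretch of exon. Of the 15 peaks, 10 touched end to end and together covered chromosome 15, 34117090 to 34117571, a gapless stretch of 482 nt. This stretch held 56.4% of the 854 nt that Mtdh peaks covered, although the peaks as a whole spread over 27454 nt of the genome from 34115770 to 34143223. After touching peaks were joined, Mtdh had 6 separate regions: the stretch, 3 single exon peaks and 2 single 3' UTR peaks. Every piece of the stretch had a higher log2 fold of immunoprecipitate over input than any peak outside it, with 6.34 to 9.30 inside and 3.50 to 5.88 outside. The genomic sequence of the stretch and the exon boundaries around it were not used here.

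**Figure D1:**
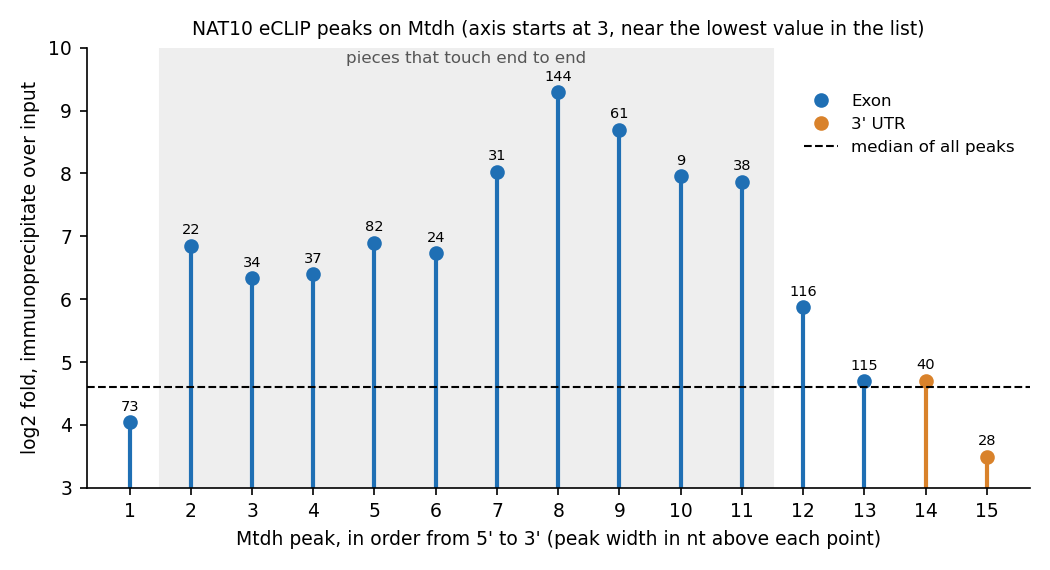
Log2 fold over input (vertical axis) of the 15 Mtdh peaks in order from 5' to 3' (horizontal axis), with exon peaks in blue, 3' UTR peaks in orange and the width of each peak in nt above its point. The 10 pieces on the shaded ground touch end to end and lie between 6.34 and 9.30, and the dashed line marks the median of all peaks, 4.60.

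Within the stretch the fold formed a low shoulder, a summit and a second shoulder. The shoulder at the 5' side was 199 nt long and made of 5 pieces. From 5' to 3' their log2 folds were 6.85 (22 nt wide), 6.34 (34 nt), 6.40 (37 nt), 6.90 (82 nt) and 6.74 (24 nt). The next piece, 31 nt wide, stepped up to 8.03. The summit followed at 34117320 to 34117463, a peak of 144 nt with a log2 fold of 9.30, which is 628-fold over input. It was the widest as well as the strongest peak on Mtdh. Towards the 3' end the log2 fold declined in 3 steps, to 8.70 (61 nt), 7.95 (9 nt) and 7.87 (38 nt). The 3' part of the stretch measured 283 nt in 5 pieces. The division into parts was drawn from the folds themselves, so the 3' part lies above the 5' part by construction. Summit and lowest piece differed by 2.96 on the log2 scale, a ratio of 7.77.

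The authors' -log10 p gave nearly the same profile. Fold and p come from the same libraries, so this is not separate evidence for the shape. It was 146 at the summit and 140 in the piece after it, then 83.2 and 78.2 at the 3' end. In the 5' shoulder it ran from 26.6 to 55.7, and in the 31 nt step before the summit it was 60.1. In a pair of pieces the order by p departed from the order by fold. The first piece of the stretch had the lowest -log10 p there, 26.6, but a log2 fold of 6.85 that exceeded those of 3 other pieces. The step before the summit exceeded both pieces of the 3' end by fold, with 8.03 against 7.95 and 7.87, and lay below both by p. No Mtdh peak reached the ceiling of the p column, 400, at which 34 peaks of the list stood.

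**Figure D2:**
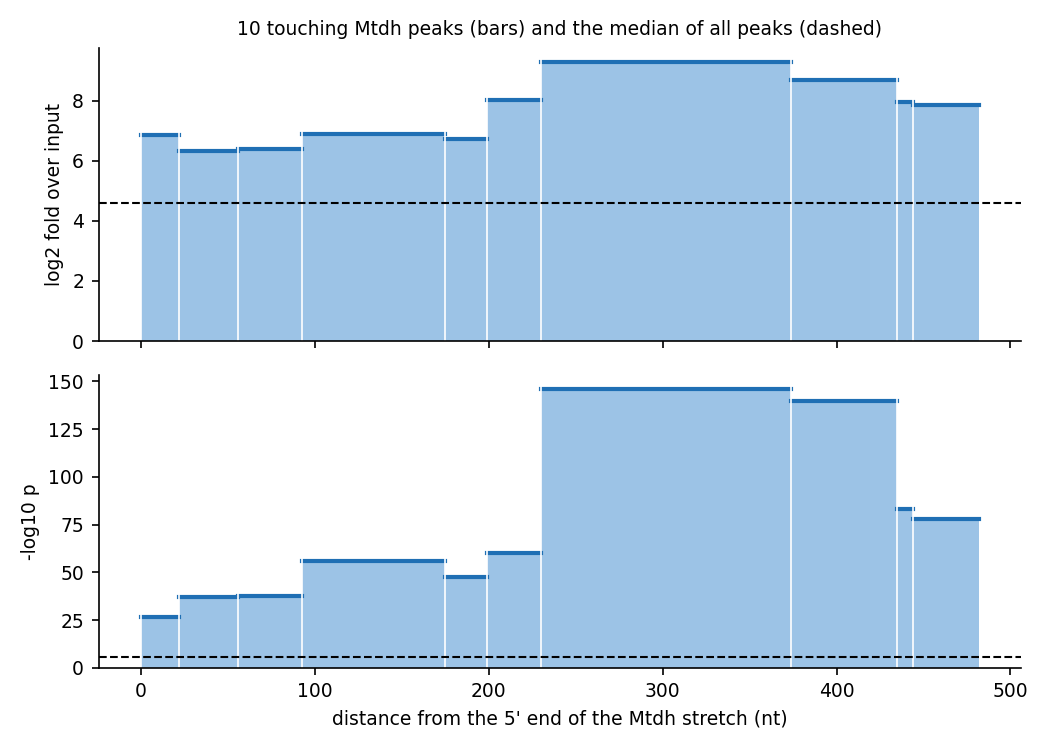
Log2 fold over input (upper panel) and -log10 p (lower panel) of the 10 touching Mtdh peaks against the distance in nt from the 5' end of the stretch, each bar as wide as its peak, with the medians of all peaks (4.60 and 5.68) as dashed lines. Both values are highest in the bar from 231 to 374 nt, at 9.30 and 146.

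The 5 peaks outside the stretch had a median log2 fold of 4.69, near the 4.60 of all peaks. They ranged widely, from rank 630 to rank 3944 of the 4172 peaks by fold. Upstream, an exon peak of 73 nt at 34115770 to 34115842 reached a log2 fold of 4.05 (-log10 p 6.05), and 1247 nt of genome separated it from the stretch. Downstream, after 4018 nt, an exon peak of 116 nt at 34121590 to 34121705 reached 5.88 (-log10 p 12.4). It was the strongest outside the stretch, yet the summit lay 10.7-fold above it. The next exon peak, 115 nt at 34129636 to 34129750, stood at 4.69 (-log10 p 4.95).

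The 3' UTR of Mtdh had a pair of peaks, 1 of them the weakest on the gene. They lay 53 nt apart at the far end of the bound part of the gene, 13352 nt downstream of the last exon peak. The first, 40 nt at 34143103 to 34143142, stood at a log2 fold of 4.70 (-log10 p 5.38), close to the last exon peak by fold. The second, 28 nt at 34143196 to 34143223, had 3.50 and 3.85, the lowest values of all 15 peaks in both columns. No Mtdh peak was placed in the 5' UTR.

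Most peaks of Mtdh were thus exonic, in a list that is mostly 3' UTR. Of its 15 peaks 13 were in the authors' exon class (86.7%), against 36.7% of all 4172 peaks, and 2 were in the 3' UTR (13.3%), against 57.6%. Peaks of 1 gene are not independent, and the stretch alone gave 10 of the 13. By separate region, 4 of the 6 on Mtdh were exonic, and 36.9% of all 3421 joined regions. The median log2 fold of Mtdh peaks was 6.74, which is 107-fold, beside 4.60 and 24.3-fold for all peaks. Above the median of the list lay 13 of the 15 peaks by fold and 12 by p. Without the stretch, the median of the remaining 5 peaks was 4.69. Mtdh peaks were narrow, with a median of 38 nt beside 79 nt for all peaks and 69 nt for all exon peaks, and in the stretch the median piece measured 35.5 nt. Single pieces of a divided stretch were measured there, not whole bound regions.

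A gapless stretch of this size was rare in the list. Of the 3421 joined regions 526 (15.4%) were made of more than 1 peak, with a median length of 152 nt. The Mtdh stretch was the second longest of all, after 483 nt in the 3' UTR of Fyco1, which encodes an adaptor for autophagosome transport. Only 7 joined regions reached 400 nt, a limit set after the lengths were seen, and that of Mtdh was the only one whose strongest peak was exonic. The others lay in the 3' UTRs of Fyco1, Mlec (475 nt), Triobp (446 nt), Bin2 (414 nt), Mecom (413 nt) and Ptpre (411 nt). By number of pieces the Mtdh stretch, with 10, shared the second place with those of Bin2 and Actb, behind 13 in Ptpre. Among the 1264 joined regions of the exon class it ranked first both by length and by number of pieces. The next exonic stretch by pieces was in mt-Nd5, a mitochondrial mRNA for a subunit of complex I, with 9 pieces over 293 nt. Its log2 folds ran from 6.35 to 7.12, a narrower range than the 6.34 to 9.30 of Mtdh. A wide range was not particular to Mtdh: the Actb stretch ran from 3.96 to 8.57, which is wider, and that of Ptpre from 6.75 to 9.49. In Bin2, the gene with the highest fold of the list, all pieces of the stretch had a log2 fold of 8.98 or more. These are descriptions within 1 list, and whether such stretches differ in their spread between replicates could not be tested.

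**Figure D3:**
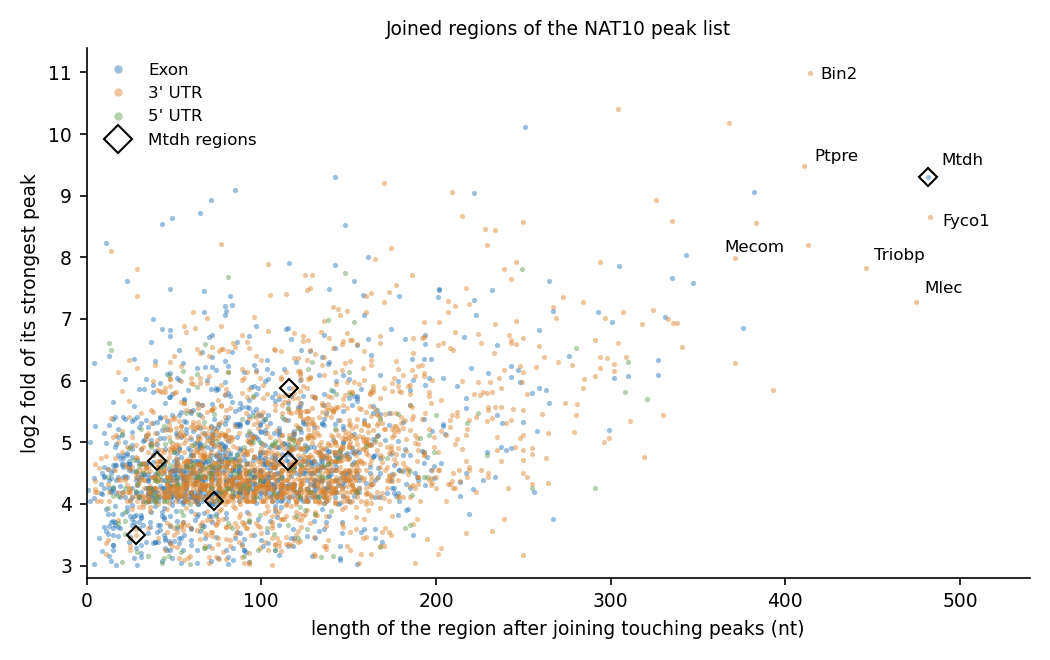
Each point is 1 of the 3421 regions left after touching peaks were joined, with its length in nt on the horizontal axis, the log2 fold of its strongest peak on the vertical axis and its class by colour; diamonds mark the 6 Mtdh regions. The longest Mtdh region (482 nt, 9.30) stands among 6 long 3' UTR regions at the right, and the other 5 lie within the bulk of the list.

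Among all 1626 gene symbols with a peak, Mtdh ranked 6 by its strongest log2 fold and shared rank 12 by number of peaks. The latter counts each piece of the stretch as a peak, and with touching peaks joined it was 54. The median gene had 2 peaks, 762 genes had 1, and 41 had 10 or more. Directly above Mtdh by strongest log2 fold were mt-Nd2, another mitochondrial complex I mRNA (10.12, 9 peaks, all exonic), and Ptpre, a receptor-type tyrosine phosphatase gene (9.49, 16 peaks, all in the 3' UTR). Directly below were Frrs1, a ferric reductase gene (9.08, 18 peaks, of which 8 were exonic), and Uprt, a gene named for uracil phosphoribosyltransferase (9.06, 3 peaks, all in the 3' UTR). With no error per peak, the order of these neighbours cannot be separated from replicate spread. Of the 704 genes with an exon peak, mt-Nd2 alone had a higher one than Mtdh. By the strongest -log10 p the rank of Mtdh was 15, and by the median peak of each gene it was 38. The position of Mtdh rested on the stretch: with the other 5 peaks alone its rank by strongest log2 fold would be 248.

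The genes most like Mtdh were sought among the 41 with 10 or more peaks. Likeness was measured over 4 values of each gene: the number of peaks, the percentage in exons, the median log2 fold and the strongest log2 fold, each divided by its standard deviation over the 41 genes. The nearest was mt-Co1, the mitochondrial mRNA for a catalytic subunit of cytochrome c oxidase, at a distance of 0.779. It had 16 peaks, all exonic, with a median log2 fold of 7.11 and a strongest of 8.52. Frrs1 followed at 1.44, with a median of 7.20 and 44.4% of its peaks in exons. Then came mt-Nd5 at 1.69 (15 peaks, median 6.37, strongest 7.12), Arglu1 at 1.87 (10 peaks, 5.67, 8.19) and Serinc3 at 2.25 (15 peaks, 5.54, 6.63). None of these 5 had a gapless stretch as long as that of Mtdh, and their longest joined regions measured 153, 326, 293, 229 and 135 nt in the same order. The nearest mRNA by these values was thus mitochondrial, and Frrs1 was the nearest nuclear one. The percentage in exons, 1 of the 4 values, was 100% for both mt-Co1 and mt-Nd5. Whether the annotation of mitochondrial mRNAs leaves room for another class was not checked, so their closeness need not reflect where NAT10 binds. Each piece of a divided stretch counted as 1 peak here. With touching peaks joined, Mtdh has 6 regions, fewer than the 10 required, and a median log2 fold of 4.70 over their strongest pieces. The likeness thus depends on how stretches were divided, and it was not measured on joined regions.

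**Figure D4:**
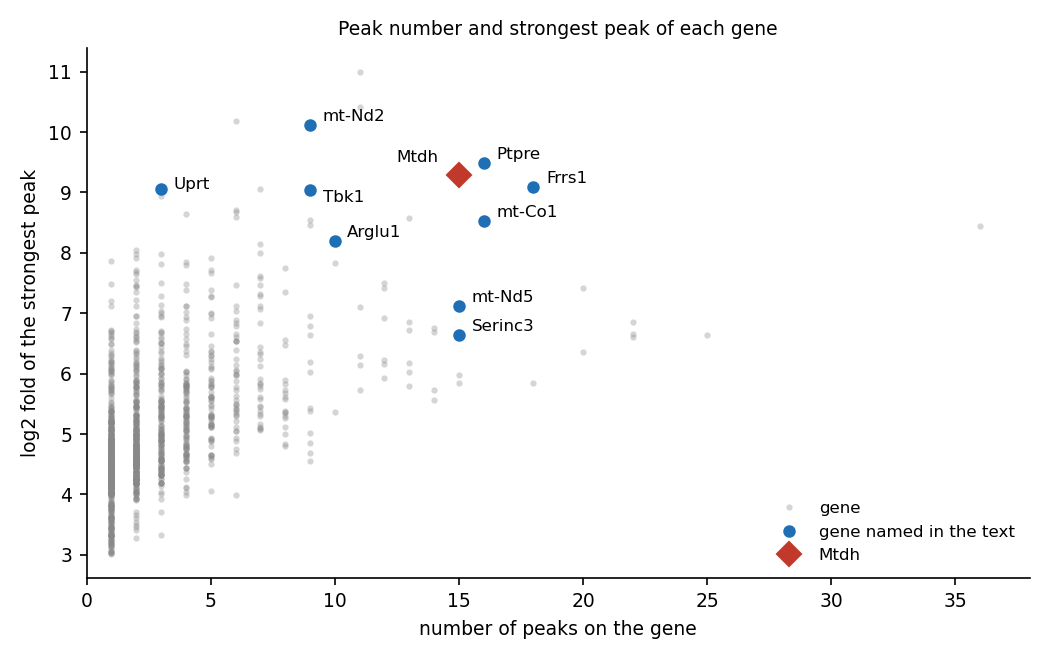
Number of peaks (horizontal axis) and log2 fold of the strongest peak (vertical axis) of each gene symbol in the list, with Mtdh as a red diamond and the genes set beside it in blue. Mtdh (15 peaks, 9.30) lies near Ptpre, Frrs1 and mt-Co1 at the upper edge of the genes with many peaks.

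The folds may also carry a trace of the read counts behind them. This was sought with 1 constant, searched for in these same folds until a share of at least 0.9 of peaks passed. The share reached is therefore no test. For 90.7% of all peaks, the square of the linear fold, divided by this constant common to the list, was a whole number within 0.01. A mean over both replicates of log2 ratios of whole reads to single input reads has this form. All 15 Mtdh folds were of this kind. If each input library had a single read in these peaks, the geometric mean of the reads per immunoprecipitate would be 722 at the summit, 92.9 in the lowest piece of the stretch, 67.5 in the strongest peak outside it and 13.0 in the weakest 3' UTR peak. On that reading the input would be the same in every Mtdh peak. Differences in fold between them would then follow the immunoprecipitate reads alone, uncorrected for the width of a piece. Ranks among genes would likewise not be corrected for the abundance of each mRNA where the input is a single read. These counts are a reading of the deposited values and were not checked against library counts. They rank the pieces as the folds do, so the order by p departs from them in the same places. The first piece of the stretch would have 133 reads at a -log10 p of 26.6, and the lowest piece 92.9 at 37.3. The reason was not tested. Touching pieces can also share reads, so the 10 pieces of the stretch need not be separate measurements.

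Peaks of other genes near Mtdh on the chromosome were also looked up, without a comparison to the density of peaks elsewhere. Within 1000000 nt on either side of its peaks, Rpl30, which encodes a protein of the large ribosomal subunit, was the only other gene listed. It had 3 peaks on the opposite strand between 34441435 and 34442928, the strongest at a log2 fold of 5.86.

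Partners and pathways of metadherin were looked up in the same list as lists of genes chosen for their roles. As background, 7.33% of 21900 protein-coding genes had a peak. Of 8 genes for reported partners 3 had one (37.5%), each a single peak in the 3' UTR: Yy1, a zinc finger transcription factor (log2 fold 4.44), Snd1 (4.38) and Ago2, the small-RNA-guided nuclease of the silencing complex (4.05). A peak above the median log2 fold of the list was present on 3.95% of protein-coding genes and on none of these 3. Mtdh is among the genes with such a peak. On it 13 of the 15 peaks lay above the median, but 10 of them are touching pieces of 1 stretch. Rela, which encodes p65, and Crebbp, Zbtb16, Bccip and Rxra had no peak in the list, which does not show that they were unbound. Of 18 genes of the silencing complex and miRNA pathway 3 had a peak (16.7%). Besides Snd1 and Ago2, which stand in both lists, this was Fmr1, the fragile X RNA-binding protein gene, with 3 peaks in the 3' UTR and a strongest log2 fold of 5.91.

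In the NF-kB pathway 5 of 30 genes had a peak (16.7%). Tbk1, a kinase that activates the interferon response, had 9 peaks and a strongest log2 fold of 9.04, also in an exon. The others were Map3k7, the kinase TAK1 that acts on the IkB kinases (5.11, 1 peak in the 3' UTR), the IkB kinase genes Ikbkb (4.80, 3 peaks, all exonic) and Chuk (4.75, 2 peaks in the 3' UTR), and Tab2, an adaptor of Map3k7 (4.46, 1 peak in the 3' UTR). Tbk1 was the only one near Mtdh in strength, and its longest joined region, 222 nt, was shorter than the stretch of Mtdh.

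The endoplasmic reticulum list held genes for translocon and ribosome-binding proteins, oligosaccharyltransferase subunits, calnexin and the signal recognition particle. It had a higher count of genes with a peak, 12 of 30 (40%). The strongest were Canx, the lectin chaperone calnexin (6.78), Srp72, a protein of the signal recognition particle (5.55), Ssr1, a translocon-associated protein (4.91), Tram1, which assists translocation (4.89), Stt3a, the catalytic subunit of an oligosaccharyltransferase (4.69, with 9 peaks), and Ssr3 (4.66). These 6 had their strongest peak in the 3' UTR. Over all 12 it lay in the 3' UTR for 7 and, as on Mtdh, in an exon for 5 (Sec61a1, Rpn1, Sec61g, Rpn2 and Ssr4, with log2 folds from 4.11 to 4.50). The median strongest log2 fold of the 12 was 4.59, close to the 4.69 of all bound genes. Mtdh, with 6 separate regions, is among the 3.39% of protein-coding genes with peaks in at least 2 of them, as are 7 of the 30 genes of this list (23.3%), 2 of the 30 in the NF-kB list and none of the partners. The background counts all protein-coding genes, transcribed in 32D cells or not, so these shares are not set against expressed genes.

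Of 15 marker genes of myeloid, mast or interleukin-3-dependent cells 5 had a peak (33.3%), Gata2 (5.04), Csf2rb (4.995), Srgn (4.75), Ptprc (4.55) and Prtn3 (4.19). The others, Csf2rb2, Il3ra, Spi1, Cebpa, Mpo, Elane, Ctsg, Cpa3, Kit and Cd34, had none. None of 9 lymphoid, 5 erythroid and 4 hepatocyte markers had one. The share over all protein-coding genes was 7.33%, at which lists this short can have none, so the empty lists do not tell cell types apart. A peak list gives no expression level, so these counts describe only which marker mRNAs were listed.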

How the data were processed

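The authors deposited 1 list of 4206 peaks for 2 immunoprecipitates and 2 inputs. Its p column, named so per the file headers, was read as -log10 p, since it holds values above 3 and up to 400. Its fold column, named so per the file headers, was read as a log2 ratio of pull-down to input; the scale is not stated. The submitters' processing notes give GRCm39 as the build. For the aligner, the peak caller, the cut-offs, how replicates were joined and how reads with several matches were handled, the sources used here give nothing, and library depths were not used.

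Peaks listed under 2 gene identifiers were counted once among peaks and under each gene among genes. Positions count from 1. Touching peaks of 1 strand were joined with Python 3.11.15 and pandas 2.3.3, in steps tested on simulated data. A joined region has the class of its strongest peak. Of 1626 symbols 1609 matched the RefSeq table of GRCm38.p6, used for names and gene types only. Named genes were the 2 neighbours of Mtdh on each side by strongest fold, the 5 nearest genes and up to 6 bound members of each list; genes with long joined regions were added after their values were seen. Members and lists were chosen with earlier results of these data known.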

Additional observations from a re-analysis of the deposited data

How the results depend on the processing

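No paired analysis was possible because the list holds no value per library, and no replicate could be left out. The number of Mtdh peaks was 15 and became 6 with touching peaks joined, 6 with peaks at most 50 nt apart joined, and 5 outside the stretch. The percentage of Mtdh peaks in exons was 86.7% and stayed between 60% and 92.3% (95% exact binomial interval 59.5 to 98.3, counting error only), except for 100% with only the peaks above the median -log10 p. That interval treats the 15 peaks as independent, which they are not, since 10 are touching pieces of 1 stretch. The median log2 fold was 6.74; it was 6.40 weighted by width, 6.57 with peaks of 20 nt or wider, 4.70 with the strongest piece of each joined region and 4.69 outside the stretch. The rank by strongest peak was 6; it was 15 by -log10 p, 38 by the median peak, 2 with exon peaks only and 248 outside the stretch. The rank by number of peaks was 12 and fell to 54 with touching peaks joined. With only peaks above the median log2 fold (3.95% of protein-coding genes), 0% of the partners and 20% of the endoplasmic reticulum list had a peak. Where at least 2 separate regions per gene were required (3.39%), the partners stood at 0%. By these same 2 rules the NF-kB share fell from 16.7% to 13.3% and 6.67%, and the silencing complex share from 16.7% to 5.56% (1 of 18) under both, near the background; the endoplasmic reticulum share under the second rule was 23.3%. The values outside the stretch were chosen after seeing the data. Depth behind the peaks is unknown, so none of these values has an error from replicates.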
